A study of Mus musculus with 26 samples.

Results

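Committed oligodendrocyte precursors were sought among single *Pdgfra*-lineage cells of the mouse brain and spinal cord at postnatal day 7 (P7) by the messages that they carried. A cell was selected when it held at least 5 molecules in all of *Bmp4*, *Gpr17*, *Bcas1* and *Enpp6*, drew under 0.4% of its molecules from the myelin genes *Mbp*, *Mag*, *Mog*, *Mobp* and *Mal*, and held under 3 molecules of 6 cycling genes and under 3 molecules of 5 collagen and matrix genes. The rule found 335 cells among the 920 cells of 15 P7 chips and the 1514 cells of the whole series, where a cell is a well with at least 1000 molecules. They are called marker-selected cells here. They were chosen on measured values, so their levels of these genes, and their differences from other cells of the same chips, are given as descriptions with no test.

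Oligodendrocyte precursor cells (OPCs) divide, migrate and carry the receptor for platelet-derived growth factor, *Pdgfra*. When they commit to differentiation they leave the cell cycle, lose that receptor and pass through a short stage marked by the receptor *Gpr17* and the ligand *Bmp4*, before the newly formed oligodendrocyte switches on its myelin genes. In the first postnatal week this transition is under way in the spinal cord and the brain.

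The study followed *Pdgfra*-expressing cells from embryonic to postnatal stages with STRT-seq on Fluidigm C1 chips, a method that counts each captured messenger RNA molecule once, from its 5′ end. Green fluorescent cells were sorted after papain dissociation and each chip captured up to 96 of them. At P7 the spinal cord (4 chips) and the brain (2 chips) came from heterozygous Pdgfra-H2BGFP knock-in mice. In these mice a stable nuclear GFP is made from the *Pdgfra* locus, so the protein can outlast the message. The other 9 brain chips came from Pdgfra-cre-ERT/RCE mice, in which tamoxifen starts permanent GFP expression in cells that then express *Pdgfra*: tamoxifen was given at embryonic day E12.5 for 6 chips (txE12.5) and at P3 for 3 chips (txP3), and these cells were taken at about P7. The knock-in mice were on a C57BL/6NJ background, the traced mice on a C57BL/6NJ and CD1 mixture, and the sex of the pups was not fixed. The column headers hold a Sample number, which is read here as the experiment although the labels do not call it so. By this number the spinal cord chips were made in 1 experiment and the H2B-GFP brain chips in another. The txE12.5 chips were made in 2 further experiments (chips 5, 13 and 14, and chips 15, 16 and 17) and the txP3 chips in 1. Region, reporter line and time of tamoxifen therefore cannot be told apart from the experiment. The labels do not say whether chips of a group came from separate litters, so a p-value across chips measures the spread between chips, which may be technical.

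Marker-selected cells were found on all 15 chips. The spinal cord gave 71 of them (20, 24, 22 and 5 on chips 10, 11, 12 and 26), the H2B-GFP brain 51 (32 and 19 on chips 21 and 22), the txE12.5 brain 126 and the txP3 brain 87. They held a median of 3232 molecules each, from 1020 to 10995. Their median depth was 2634 molecules in the H2B-GFP brain, 2900.5 in the txE12.5 brain, 3436 in the txP3 brain and 4368 in the spinal cord. The rule found 0 of 502 cells at E13.5, which allows a share of up to 0.598%. Chip 23 had 14 cells and chip 9 had 78, and both stand outside the rule although their titles give P7. The deposited table of chip 9 is named for E13.5, and its column headers hold the same Sample number as those of E13.5 spinal cord chips. Neither chip held a selected cell, which allows up to 21.4% and 3.85%. No well name was shared between chips.

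Other cells of the same 15 chips were used for comparison. The 213 comparison cells met the same limits on myelin, cycling and matrix genes, held under 5 marker molecules and at least 1 molecule of the lineage factors *Olig1*, *Olig2* or *Sox10*. The 99 myelin-rich cells drew at least 0.4% of their molecules from the 5 myelin genes. A further 273 cells fell in no class. Comparison cells held a median of 2156 molecules and myelin-rich cells 4985, so the 3 classes differed in depth.

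*Gpr17*, a G protein-coupled receptor (on chromosome 18), supplied 65.0% of the marker molecules in the selected cells and was found in all 335 of them. *Bcas1* (GRCm38 chr2:170343973-170427911), a gene of premyelinating oligodendrocytes, supplied 24.6% and was found in 73.4% of the cells. *Bmp4* (chr14:46383525-46390669), a secreted bone morphogenetic protein, supplied 5.42% and was found in 33.4% of the cells, and *Enpp6* (chr8:46939197-47096762), a choline phosphodiesterase of early differentiation, 4.96% and 29.9%. Each mRNA molecule counts once whatever its length, so these shares compare molecules. The selection thus rested mainly on *Gpr17*.

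The marker sum had no gap at its threshold. Of the selected cells, 69 held 5 or 6 marker molecules and 139 held 5 to 9, while 97 cells just outside held 3 or 4. In CPM, the molecules of a gene scaled to a common total, *Pdgfra* stood at 2385 in cells with 3 marker molecules and 2973 in those with 4, against 2548 at 5 and 2366 at 6. The median sum was 11 and the highest was 108. Among the 545 cells with at least 5 marker molecules, 101 were over the myelin limit, 80 over the cycling limit and 41 over the matrix limit, with overlap. The selected cells are therefore a range of a score, and 5 of them held no molecule of *Olig1*, *Olig2* or *Sox10*.

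**Figure D1:**
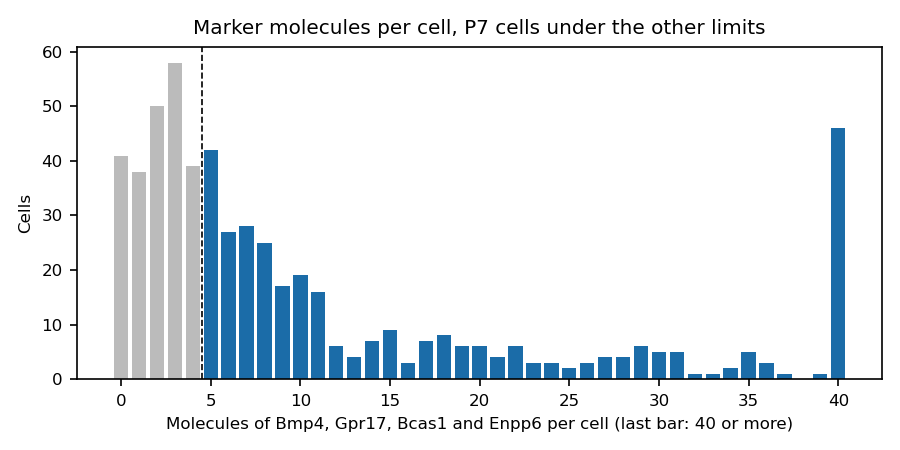
Number of cells (vertical axis) by their molecules of *Bmp4*, *Gpr17*, *Bcas1* and *Enpp6* in sum (horizontal axis, last bar 40 or more), for the P7 cells under the other limits of the rule; blue bars are the selected cells and the dashed line is the threshold of 5. The counts run through the threshold without a gap, from 58 cells with 3 molecules and 39 with 4 to 42 with 5 and 27 with 6.

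A raw sum of 5 is reached more easily in a deep cell, so the selected cells were also divided by their marker molecules per 10000 molecules, in steps chosen after the data were seen: 56 cells held under 20, 105 held 20 to 40, 102 held 40 to 80 and 72 held 80 or more. These steps are made from rule genes, and what follows along them is a description of pooled cells. The receptor *Pdgfra* (chr5:75151322-75198206) stood at 2521, 2202, 1408 and 289 CPM in the 4 steps, against 2479 in comparison cells and 243 in myelin-rich cells. Cells under 40 per 10000 thus carried *Pdgfra* near the level of the comparison cells, and only cells of 80 or more per 10000 stood near the myelin-rich cells. The label of committed precursors was borne out by *Pdgfra* in the upper steps and not in the lower ones.

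Most other precursor genes were lower in the last step too. Of 20 genes of the precursor list, 15 stood lower in the last step than in the first and 5 higher. The higher ones were the SOX factors *Sox2*, *Sox5* and *Sox6*, the receptor gene *Gpr37l1* and *Lrrn1*, with *Sox6* at 479 CPM in the first step and 619 in the last. *Matn4* hardly moved, at 140 and 129. The proteoglycan *Cspg4* (NG2) stood at 1012, 916, 626 and 144 CPM, and the endothelin receptor *Ednrb* (chr14:103814615-103844508) at 1360, 1249, 1058 and 239. *Rlbp1*, a retinaldehyde-binding protein, stood at 316, 379, 216 and 38.0. The phosphatase *Ptprz1* and the protease inhibitor *Serpine2* kept more of their level in the last step, with 893 and 1314 CPM against 2268 and 3578 in the first. The D-type cyclin *Ccnd1* stood at 587 CPM in the first step and 163 in the last, and the BMP target *Id2* at 538 and 114.

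The marker genes rose along the steps by construction, since the steps are made from them. *Gpr17*, the largest part of the marker sum, stood at 1238, 2087, 3768 and 7188 CPM along the 4 steps and at 2158 in myelin-rich cells, which were not chosen on the marker share. *Bmp4* had 764 CPM in the last step and 438 in myelin-rich cells. Among genes that the rule did not use, the sialidase *Neu4* (chr1:94020493-94028334) stood at 528 CPM in the last step and 260 in myelin-rich cells. *Nkx2-2*, a homeodomain factor of the lineage, stood at 448 CPM in the last step and 158 in myelin-rich cells. The rule gene *Enpp6* and the deacetylase *Sirt2* were instead higher in myelin-rich cells, at 1384 against 745 CPM and at 3588 against 2526. The Src-family kinase *Fyn* stood at 438, 564, 1049 and 1892 CPM along the steps and at 1907 in myelin-rich cells.

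In the last step *Cnp*, *9630013A20Rik*, *Mag* and *Mog* stood below their levels in myelin-rich cells, to different extents. *Cnp*, an early myelin enzyme, reached 1455 CPM in the last step against 3091 in myelin-rich cells, and the long transcript *9630013A20Rik* 824 against 3139. Of the late genes, *Mag* stood at 41.8 CPM in the last step against 1401 in myelin-rich cells and *Mog* at 3.80 against 295. *Opalin* had no molecule in any selected cell. *Mbp* and *Mag* belong to the rule's upper limit, so their levels were capped by it.

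The lineage factors were not alike along the steps. *Olig1* stood at 1477, 1512, 1177 and 931 CPM, and at 588 in myelin-rich cells. *Sox10* stood between 628 and 718 CPM and *Olig2* between 524 and 636, with no order from first to last in *Olig2*. The proteoglycan *Vcan* stood at 506 CPM in the first step and 714 in the last.

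**Figure D2:**
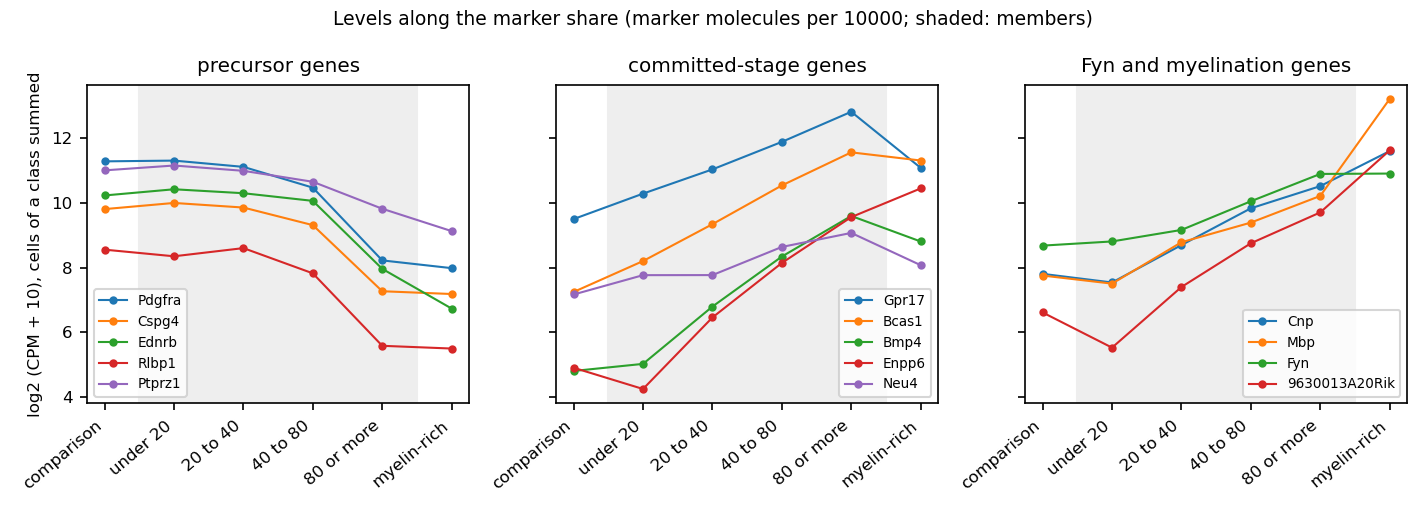
Levels on a log2 scale (vertical axis, log2 of CPM + 10) of precursor genes, committed-stage genes and *Fyn* with myelination genes in comparison cells, in the selected cells by marker molecules per 10000 (shaded steps) and in myelin-rich cells, with all cells of a class pooled. *Pdgfra* ran from 2521 to 289 CPM and *Gpr17* from 1238 to 7188 CPM across the shaded steps, while *Cnp* reached 1455 CPM there and 3091 in myelin-rich cells.

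*Bmp4* and *Enpp6* were not always found together. Both were detected in 70 selected cells (20.9%), *Bmp4* alone in 42, *Enpp6* alone in 30 and neither in 193 (57.6%). Cells with both held *Pdgfra* at 472 CPM, cells with *Bmp4* alone at 1282, cells with *Enpp6* alone at 1301 and cells with neither at 2336. The cells with both genes were the deepest of these sets, with a median of 4148.5 molecules against 3040 in cells with neither, so failure to detect a message and its absence could not be told apart in a single cell.

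The place of each group along these steps differed. Of the H2B-GFP brain cells 41.2% held 80 or more marker molecules per 10000, of the spinal cord cells 31.0%, of the txP3 cells 13.8% and of the txE12.5 cells 13.5%, with the cells of a group pooled. The chips of the groups overlapped. Of the H2B-GFP brain cells, 16 of 32 on chip 21 and 5 of 19 on chip 22 were in the last step, so that without chip 21 the H2B-GFP value was 26.3%. The spinal cord chips ran from 20.0% to 45.5%, the txP3 chips from 4.0% to 24.2% and the txE12.5 chips from 0.0% to 27.3%. Under 20 per 10000 stood 28.7% of the txP3 cells and 11.8% to 12.7% of the other groups' cells. The contrasts between groups given below compare all selected cells of each chip, and the values were also computed for the cells of 40 or more per 10000 alone.

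On each chip the selected cells were then set beside the comparison cells of the same chip, as the mean log2 ratio of CPM + 10 ± SD over 15 chips. Of 5176 genes with at least 50 CPM in either class, 16 (0.309%) were higher in the selected cells on every chip and at least 2-fold higher in the mean. Lower on every chip and at least 2-fold lower in the mean were 0 (0.0%). This 2-fold rule does not ask for a 2-fold difference on each single chip. The 4 rule markers are among the 16, with mean log2 ratios of 3.83 ± 1.37 for *Bmp4*, 3.37 ± 1.49 for *Enpp6*, 3.17 ± 1.31 for *Bcas1* and 2.48 ± 0.78 for *Gpr17*, which the rule fixed. Among genes outside the rule that were higher on all 15 chips, *Neu4* had a mean ratio of 1.99 ± 1.38, *Sirt2* 1.80 ± 0.88, the membrane skeleton protein gene *Epb4.1l2* 1.80 ± 1.62, the actin regulator *Cyfip2* 1.49 ± 1.33, the tetraspanin *Cd9* 1.43 ± 0.65, *Fyn* 1.26 ± 0.85 and the α-tubulin *Tuba1a* 0.94 ± 0.57. *1700047M11Rik* had a mean ratio of 2.41 ± 1.23. *Neu4* ran from 65.3 to 640 CPM in the selected cells of the chips, with a median of 331, and from 0 to 349 in comparison cells, with a median of 88.7. *Sirt2* ran from 507 to 2066 CPM, with a median of 1192, and from 103 to 650, with a median of 280. The chip ranges of both genes overlapped between classes, although on each chip the selected cells were higher.

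*Pdgfra* was lower in the selected cells on 14 of 15 chips, with a mean log2 ratio of −0.75 ± 0.64. It ran from 261 to 2777 CPM with a median of 1598 in the selected cells, and from 666 to 3458 with a median of 2529 in comparison cells. *Hes1* was lower on 14 of 15 chips, by −1.58 ± 2.08. *Cspg4* had a mean ratio of −0.61 ± 0.88 and *Ednrb* of −0.57 ± 1.63, both with a spread larger than the mean, and *Olig1*, *Olig2* and *Sox10* had ratios of −0.10 ± 0.43, −0.15 ± 0.53 and 0.25 ± 0.34. Of 20 precursor genes, 0 passed the 2-fold rule in either direction and the median ratio was −0.17, against 0.23 over all genes considered. Of 16 other committed-stage genes at 50 CPM 3 passed the 2-fold rule as higher, with a median of 1.40. Of 12 other myelin genes 1 did, with a median of 1.18. Of the pathway lists, 9 genes of BMP signalling, 7 of Notch and 4 of canonical Wnt were at 50 CPM, and 0 of them passed the 2-fold rule in either direction.

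**Figure D3:**
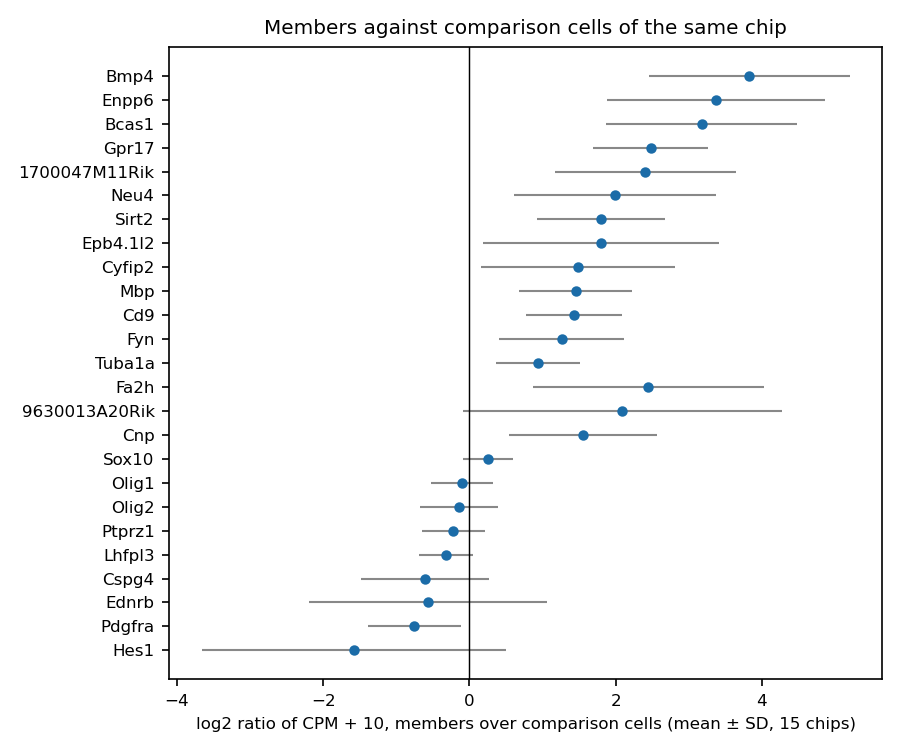
Mean log2 ratio of CPM + 10 between the selected cells (members) and the comparison cells of the same chip (horizontal axis), with bars of 1 SD over 15 chips, for rule genes, genes named by their ratio and list genes. *Bmp4* at 3.83 and the other rule markers lie to the right by construction, *Neu4* at 1.99 and *Sirt2* at 1.80 follow, and *Pdgfra* at −0.75 lies left of the zero line.

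Against myelin-rich cells, 8 chips had at least 5 cells of both classes (4 of spinal cord and 4 of txE12.5 brain). Of 5110 genes at 50 CPM, 155 (3.03%) were higher in the selected cells on every one of these chips and at least 2-fold higher in the mean. By the same rule 127 (2.49%) were lower. The rule used *Mbp*, whose ratio was −3.32 ± 0.65, and *Mag*, at −4.89 ± 1.94. Outside the rule, the genes with the lowest ratios were the kinase *Cdk18* at −3.95 ± 1.56, the scaffold gene *Frmd4a* at −3.72 ± 1.71, the Rac-regulating chimaerin *Chn2* at −3.66 ± 1.10, *Cnksr3* at −3.61 ± 1.30, the G-protein regulator *Rgs16* at −3.59 ± 1.02, *9630013A20Rik* at −3.23 ± 2.08, the tight-junction gene *Cldn11* at −3.21 ± 1.30 and the PI3-kinase subunit *Pik3r3* at −3.17 ± 1.96. *Chn2* ran from 11.3 to 516 CPM with a median of 65.2 in the selected cells and from 576 to 2147 with a median of 1082 in myelin-rich cells, with no overlap of the chips.

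Among the genes with the highest ratios over myelin-rich cells were the adherens junction gene *Ajap1* at 3.37 ± 1.07, the ETS factor *Etv5* at 2.84 ± 1.28, the growth factor *Ptn* at 2.69 ± 2.32 and the synapsin *Syn2* at 2.62 ± 0.64, followed by *Polg*, *Olfm2*, *Lrrn2*, *Ncan* and *Nsg2* between 2.57 and 2.61. *Ajap1* ran from 31.4 to 229 CPM with a median of 131 in the selected cells and from 0 to 11.9 in myelin-rich cells. *Ptn* ran from 846 to 1928 CPM with a median of 1151 and from 0 to 728 with a median of 300. Neither gene overlapped between the classes. Of 20 precursor genes 7 passed the 2-fold rule as higher than in myelin-rich cells, with a median ratio of 1.76 against 0.19 over all genes considered. Of 19 other committed-stage genes 8 passed it as lower (median −1.42), and of 15 other myelin genes 6 did (median −1.63).

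Most marker lists of other cell types gave low sums when the selected cells were pooled. Summed over the cells, 9 neuronal markers gave 222 CPM, 8 meningeal markers outside the rule 212 CPM, 8 microglial markers 52.2 CPM, 7 pericyte markers 38.5 CPM and 7 endothelial markers 19.7 CPM. Of these lists, the endothelial genes *Pecam1* and *Ly6c1*, the pericyte-list genes *Acta2* and *Tagln* and the meningeal gene *Slc6a13* had no molecule. All other genes of the 3 lists were detected, with 23 endothelial, 45 pericyte and 248 meningeal molecules. Astrocyte markers gave 616 CPM, with 0 molecules of *Gfap* among 8 genes, against 972 CPM in comparison cells. In single cells, at least 3 meningeal molecules were held by 34 selected cells (10.1%) and at least 3 astrocyte molecules by 97 (29.0%). Of the comparison cells 14.1% and 30.0% did so. The microglial sum was 30.0 CPM in comparison cells, below that of the selected cells. By chip the meningeal sum ran from 20.9 to 65.3 CPM in spinal cord, from 55.1 to 110 in the H2B-GFP brain, from 183 to 750 in the txE12.5 brain and from 125 to 394 in the txP3 brain. The microglial sum reached 746 CPM on 1 txE12.5 chip. These sums move with the groups, and their part in the contrasts below was not tested.

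The share of marker-selected cells on a chip addressed whether region, tracing time or reporter line goes with more cells at this stage. It was 31.6 ± 8.93% of the cells in the spinal cord (SD, n = 4), 46.5 ± 10.9% in the H2B-GFP brain (n = 2), 31.5 ± 7.41% in the txE12.5 brain (n = 6) and 45.0 ± 11.5% in the txP3 brain (n = 3). The spinal cord chips gave 35.1%, 34.3%, 38.6% and 18.5%, and the H2B-GFP brain chips 54.2% and 38.8%, so both brain chips lay above the spinal cord chips, by a small margin at the closest pair. The difference was −14.9 percentage points (exact two-sided permutation over chips, p = 0.133, adjusted p = 0.2 over the 3 share tests; chips in these numbers cannot give a p under 0.0667). With a myelin limit of 0.8% in place of 0.4% it was −3.86 points (44.5% against 48.4%, exact permutation p = 0.867). The txP3 chips gave 41.4%, 57.9% and 35.7%, and the txE12.5 chips ran from 21.8% to 42.9% with a median of 32.2%. These ranges overlapped, and the difference of 13.5 points had an exact permutation p of 0.0595 (smallest 0.0119, adjusted 0.179). All 9 traced chips together had 36.0 ± 10.6% against 46.5 ± 10.9% in the H2B-GFP brain, an overlapping difference of −10.5 points (exact permutation p = 0.255, smallest 0.0182, adjusted 0.255).

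The tracing comparison was also made by rules that allow for depth. When every cell was thinned to 1000 molecules, at least 2 marker molecules were asked for and no molecule of the cycling or of the matrix genes was allowed, the txP3 brain had 32.6 ± 4.78% and the txE12.5 brain 29.6 ± 6.22% (difference 3.06 points, exact permutation p = 0.44). When 40 or more marker molecules per 10000 were asked for, the txP3 and txE12.5 brain had 15.8 ± 13.7% and 15.9 ± 2.62% (n = 3 and 6). Under both of these rules the traced brain was lower than the H2B-GFP brain, by −14.0 and −16.9 percentage points (exact permutation p = 0.0364 for each, not adjusted). The gap depended on the cells counted in the total. As a share of the selected, comparison and myelin-rich cells alone, the traced brain differed by −2.91 points (exact permutation p = 0.727). By that share txP3 differed from txE12.5 by 6.29 points (exact permutation p = 0.536). Reporter line, sort and experiment cannot be told apart between traced and H2B-GFP brain.

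**Figure D4:**
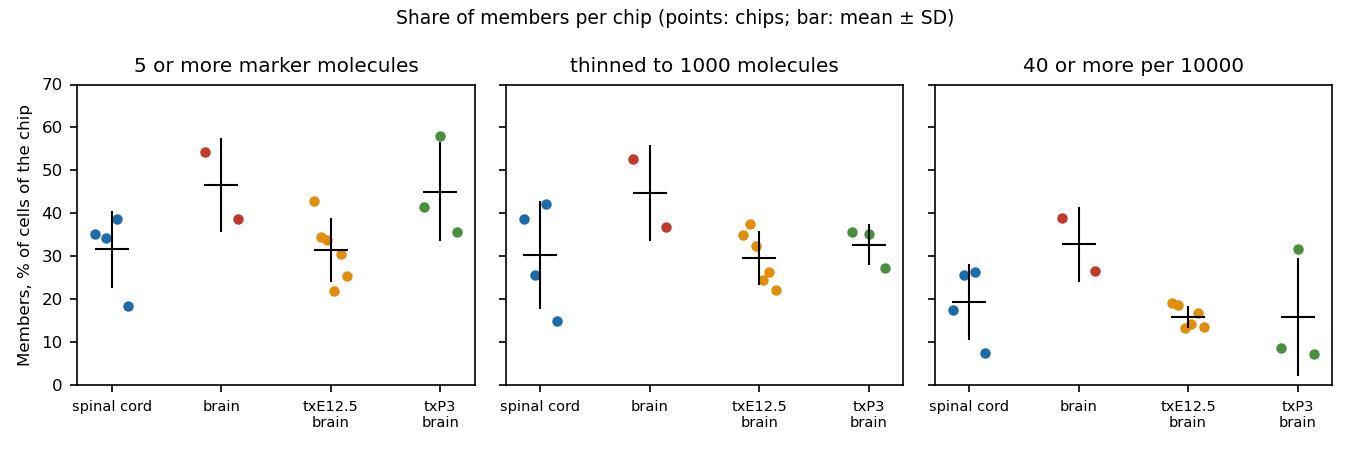
Share of marker-selected cells among the cells of a chip (vertical axis, percent) for the 4 groups, by the rule of 5 molecules, after thinning each cell to 1000 molecules (2 marker molecules asked for) and by 40 or more marker molecules per 10000. Points are chips and bars are mean ± SD; the txP3 brain has a mean of 45.0% in the first panel, 32.6% in the second and 15.8% in the third, and the H2B-GFP brain 46.5%, 44.6% and 32.8%.

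Region was examined next, in the molecules of the selected cells summed per chip, with edgeR's quasi-likelihood test in 1 fit over the 4 groups. Of 3362 genes tested, 42 (1.25%) passed an adjusted p of 0.05 between spinal cord and H2B-GFP brain, 21 (0.625%) higher in spinal cord and 21 (0.625%) lower. The count depended on single chips: it was 20 without spinal cord chip 11, 19 without chip 12, 14 without brain chip 21 and 6 without brain chip 22. *Ednrb*, a receptor for endothelins that precursors carry, was the gene with the lowest adjusted p. The spinal cord chips held 356, 114, 135 and 0 CPM of it and the H2B-GFP brain chips 1290 and 2738. No spinal cord chip reached either brain chip, and the log2 difference was −3.44 (SE 0.37, adjusted p = 1.2e-09). It kept its call under all 15 alternatives run.

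*Pdgfra* itself was lower in the selected cells of the spinal cord. Its levels were 639, 375, 406 and 261 CPM on the spinal cord chips and 1069 and 1280 CPM on the H2B-GFP brain chips, with no overlap. The log2 difference was −1.40 (SE 0.32, edgeR adjusted p = 0.0106), and it lost its call under 8 of 15 alternatives, among them those without chip 11 (−1.30, adjusted p = 0.0654), chip 21 (−1.50, adjusted p = 0.123) or chip 22 (−1.34, adjusted p = 0.235). *Rlbp1* held 105, 24.4, 33.8 and 196 CPM in spinal cord and 331 and 508 in brain, a difference of −2.70 (SE 0.50, adjusted p = 0.00044) that became −2.45 (adjusted p = 0.0569) without chip 22. The fourth precursor gene called, the glial factor *Sox9*, was lower by −2.55 (SE 0.63), and its ranges did not overlap (24.4 to 65.3 CPM against 88.3 and 331). In all, 4 of 19 precursor genes tested were lower and 0 higher, with a median log2 difference of −0.85 against −0.02 over all genes tested. The list was chosen with earlier results of these data known. *Cspg4* had a difference of −0.82 that did not pass (adjusted p = 0.403).

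*Xist* and *Tsix* had the largest log2 differences of this contrast. *Xist* held 8.14 CPM on spinal cord chip 11, 0 on the other 3 spinal cord chips and 1091 and 1192 CPM on the brain chips (−7.91, SE 1.22, adjusted p = 3.2e-05), and *Tsix*, on the opposite strand, was at least 29.0-fold lower by a limit of 3 molecules over the 4 chips. The levels of *Xist* and *Tsix* thus moved with region here. Their part in the other differences, and that of the pups' sex, which was not fixed, was not tested. Other genes lower in the spinal cord were the glutamate transporter *Slc1a3* (−1.80), the AMPA receptor subunit *Gria2* (−1.26), *Cd9* (−1.13) and the calmodulin-binding *Pcp4* (−3.66). *Slc1a3* is also an astrocyte marker. The adhesion molecule *Chl1* had no molecule on the 4 spinal cord chips and 44.1 and 177 CPM on the brain chips, and was at least 11.9-fold lower, with the spinal cord set at a limit of 3 molecules over its 4 chips. By the same limit *Tmem179* was at least 10.1-fold lower. Genes higher in the spinal cord included the Y-box protein *Ybx1*, with 932, 961, 1083 and 1044 CPM against 121 and 199 (log2 difference 2.67, SE 0.45, adjusted p = 0.00013), whose adjusted p was 0.107 without chip 21. *Rps15* (3.27), the protease *Capn5* (3.21), the splicing factor *Prpf38b* (2.70), the repair factor *Rad23b* (2.64) and the microtubule protein *Map1b* (1.75) were higher too. *Rps15* is a ribosomal protein gene, a family with many near-identical copies whose counts may be split between them.

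The committed-stage genes gave no call between these groups. Of 14 tested outside the rule 0 passed in either direction, with *Neu4* at −0.97 (adjusted p = 0.278) and *Fyn* at 0.74 (adjusted p = 0.382). The 4 rule markers had a median difference of −0.05. Of 11 other myelin genes only *Cd9* was called. Of 7 BMP, 5 Notch, 4 Wnt and 14 cholesterol genes tested, 0 passed, and 1 of 18 cytoskeletal genes did (*Map1b*). In simulated data of this design, 49.5% of 200 genes changed by 2 on the log2 scale were recovered, so many differences of this size would be missed.

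The 2 H2B-GFP brain chips are few, and the spinal cord was also compared with the mean of the 3 brain groups, a contrast that shares its spinal cord chips and 2 brain chips with the one above. The txE12.5 and txP3 groups came from the other line and background and were given tamoxifen. Region and line therefore cannot be told apart in this contrast. Here 194 of 3362 genes (5.77%) passed, 108 (3.21%) higher and 86 (2.56%) lower in spinal cord. The count was 129, 107 and 104 without spinal cord chips 10, 11 and 12 and 120 without brain chip 22. *Pdgfra* was lower by −2.05 (SE 0.25, adjusted p = 1.2e-08), with 1322 to 2745 CPM (median 1915) in the txE12.5 brain and 2208, 2777 and 2402 in the txP3 brain, so that all 11 brain chips lay above all 4 spinal cord chips. *Ednrb* was lower by −3.002 (SE 0.31, adjusted p = 1.2e-10), with 804 to 1247 CPM (median 982) in txE12.5 and 1211, 1527 and 1615 in txP3, again with no overlap.

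Precursor genes stood lower as a list, which was chosen with earlier results of these data known. Of 19 tested, 9 were lower in spinal cord and 0 higher, with a median of −0.91 against −0.02 over all genes. Besides *Pdgfra*, *Ednrb*, *Rlbp1* (−2.44) and *Sox9* (−2.37), they were *Cspg4* (−1.45), *Emid1* (−1.59), the cysteine dioxygenase *Cdo1* (−1.58), *Ptprz1* (−0.97) and the protocadherin *Pcdh15* (−0.91). Of 7 neural matrix genes 4 were lower, namely *Sparcl1* (−2.36), *Sparc* (−1.29), *Cspg5* (−1.21) and brevican, *Bcan* (−1.14). In the step of 40 or more marker molecules per 10000, *Cspg4* was at −1.19 with an adjusted p of 0.244, while *Pdgfra* and *Ednrb* kept their calls.

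Genes of differentiation stood higher in the spinal cord in this contrast, in smaller number. They were the kinase *Fyn* (0.81) and the Wnt effector *Tcf7l2* (1.46) of 14 other committed-stage genes, with 0 lower, and *Cnp* (0.82) and the fatty acid hydroxylase *Fa2h* (1.23) of 11 other myelin genes, with 0 lower. *Fyn* lost its call under 14 alternatives of 23. *Bcas1* (0.80) and *Mbp* (1.00) were higher as well, and both belong to the rule. *Neu4* had a difference of −0.79 that did not pass (adjusted p = 0.122). Against the H2B-GFP brain alone, the committed-stage and myelin lists had medians of 0.33 and 0.16. Between traced and H2B-GFP brain their medians were −0.21 and −0.40, against 0.06 over all genes. The traced cells also stood lower on the marker scale when pooled. The part of line and of the marker scale in these differences was not tested. The cell cycle inhibitor *Cdkn1c* (p57), with 106 to 203 CPM in spinal cord and 0 to 84.6 on the brain chips, was higher by 2.06 (SE 0.59) without overlap. The growth factor *Igf2*, which meningeal cells express strongly, was at least 12.3-fold lower in spinal cord, where it had no molecule.

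Ribosomal protein genes differed between the groups too. Of 82 genes with ribosomal protein names, 40 were higher in spinal cord than in the brain groups and 0 lower, with a median of 0.80. Against the H2B-GFP brain alone 8 were higher and 0 lower (median 0.56). The brain groups also differed from each other, with 8 lower and 0 higher in traced than in H2B-GFP brain. *Gm9846*, a predicted gene named for its fold change, held 3420 to 5938 CPM in spinal cord and 513 to 1611 on the 11 brain chips (difference 2.13, SE 0.22). The selected cells of the spinal cord were also the deepest, and the part of depth in this difference was not tested. Ribosomal protein genes have many processed copies, so single values are uncertain.

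*Bcas1* molecules per *Gpr17* molecule, given without a test because both genes chose the cells, were 0.617, 0.718 and 0.659 on spinal cord chips 10, 11 and 12 and 0.24 on chip 26, which held 5 selected cells. The H2B-GFP brain had 0.308 and 0.366, the txE12.5 brain 0.192 to 0.432 and the txP3 brain 0.158 to 0.308. Chips 10, 11 and 12 lay above all brain chips and chip 26 within their range.

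**Figure D5:**
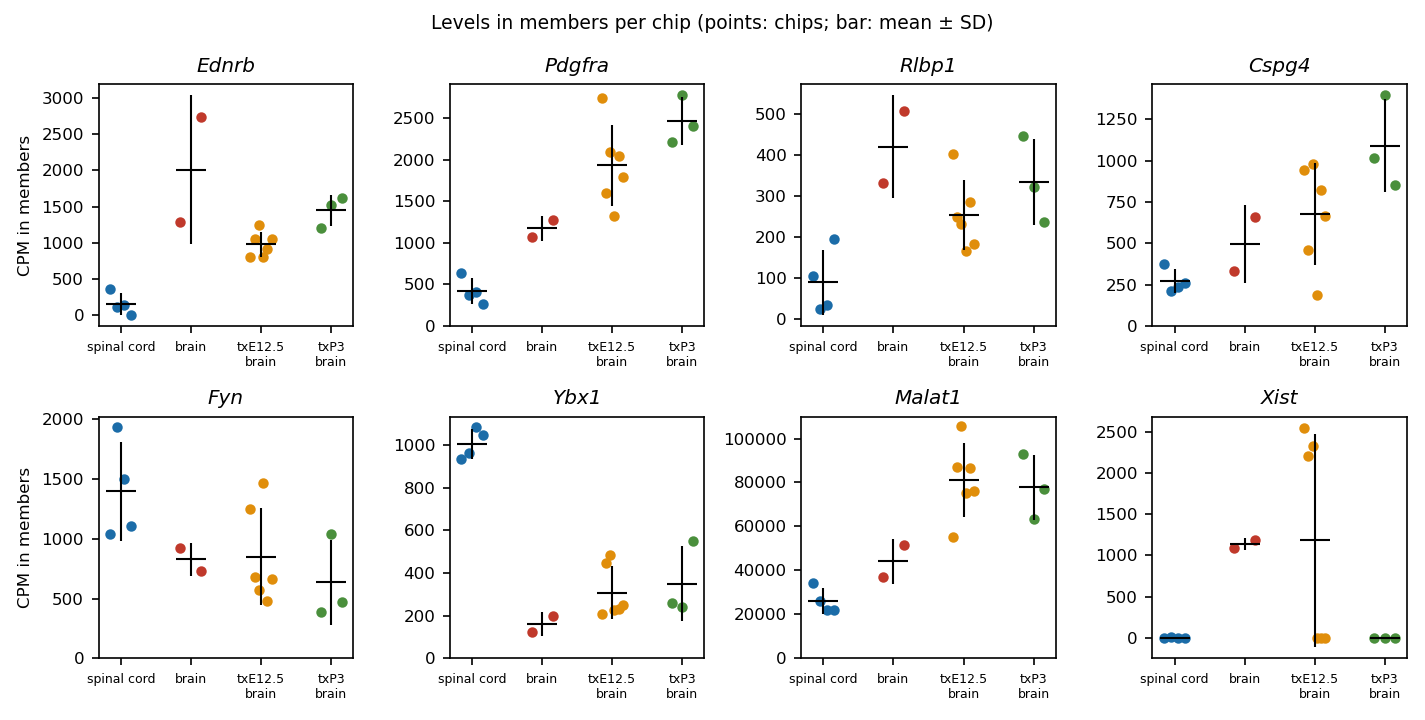
Levels in the marker-selected cells of each chip (vertical axes, CPM) for 8 genes in the 4 groups; points are chips, and bars are mean ± SD. *Ednrb* (0 to 356 CPM) and *Pdgfra* (261 to 639 CPM) were lower on the spinal cord chips than on any brain chip and *Ybx1* (932 to 1083 CPM) was higher, while *Xist* was near 2213 to 2551 CPM on 3 txE12.5 chips and 0 on the other 3.

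The regional difference was not shown to be particular to the selected cells. In comparison cells *Ednrb* had a median of 304 CPM on the spinal cord chips and 1777 on the H2B-GFP brain chips, *Pdgfra* 1271 and 2655, *Rlbp1* 54.6 and 512, and *Ybx1* 926 and 137. These differences had the direction seen in the selected cells. The interaction of class and region, with the chip as a block, called 0 of 1143 genes (0.0%) with edgeR, with 58 at an unadjusted p under 0.05, and 0 with DESeq2, with 109 unadjusted. For *Ednrb* the interaction was −1.10 on the log2 scale (SE 0.61, adjusted p = 0.993) and for *Pdgfra* −0.48 (SE 0.39, adjusted p = 0.993). *Sparc* had an interaction of −4.07 (SE 1.01, adjusted p = 0.435).

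The time of tamoxifen was compared in traced brain, a contrast that asks whether cells labelled in the embryo and after birth look alike at this stage. Of 3362 genes 3 (0.0892%) passed, all lower in txP3 and 0 (0.0%) higher, while DESeq2 called 0 (290 at an unadjusted p under 0.05). Myelination genes had differences that did not pass, at −1.53 for *9630013A20Rik*, −1.36 for *Nfasc* and −1.21 for *Mbp* (adjusted p = 0.238 for each). Of 14 other committed-stage genes 0 were called. Their median was −0.60 and that of 11 other myelin genes −0.59, against −0.01 over all genes. *Pdgfra* had a difference of 0.35 (adjusted p = 0.979).

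Of the 3 genes called, 2 were *Xist* and *Tsix*, which lie on opposite strands of 1 locus (*Xist* at chrX:103460373-103483233). Whether the counting used strand was not given in the sources used here, so their reads may not be told apart. *Xist* held 2551, 2213 and 2325 CPM on txE12.5 chips 5, 13 and 14 and 0 on txE12.5 chips 15, 16 and 17 and the 3 txP3 chips. The Y-linked genes *Ddx3y* and *Eif2s3y* had no molecule on chips 5, 13 and 14 and 44.1 to 206 CPM on the other 8 brain chips. The H2B-GFP brain chips held both *Xist* (1091 and 1192 CPM) and the Y-linked genes. The levels of *Xist* and of these Y-linked genes thus differed by experiment, and their part in this contrast cannot be told apart from experiment.

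The 2 txE12.5 experiments also differed from each other. Between them 9 genes passed, among them *Xist* and *Tsix*, and this comparison was added after the data were seen. Against chips 5, 13 and 14 alone, txP3 had 6 genes called, and none of the myelin genes was among them. Against chips 15, 16 and 17 alone, 8 genes were called, including *9630013A20Rik*, *Nfasc*, *Cldn11* and *Mbp*. None of these 4 passed between the 2 experiments, which does not show that their levels were alike in both.

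Between traced and H2B-GFP brain 16 of 3362 genes (0.476%) passed, 1 (0.0297%) higher and 15 (0.446%) lower in traced brain. The count was 30 without txE12.5 chip 15, 7 without txP3 chip 20, 1 without H2B-GFP brain chip 21 and 3 without chip 22. The nuclear transcript *Malat1* was the one higher, with 55043 to 105635 CPM (median 81369) in txE12.5 and 92878, 63268 and 77030 in txP3 against 36944 and 51441, without overlap (0.92, SE 0.24, adjusted p = 0.0486), and it lost its call under 13 of 20 alternatives. Among genes lower were *Rpl29* (−1.77), *Tmem14c* (−2.38), *1500012F01Rik* (−1.66), the pseudogene *Pisd-ps3* (−1.59) and *Xist* (−4.61), and 8 of 82 genes with ribosomal protein names were lower with 0 higher. Precursor and committed-stage genes gave 0 calls among 19 and 14 tested. *Pdgfra* had a difference of 0.98 (adjusted p = 0.128). The H2B-GFP mice were heterozygous for a knock-in at this locus, and the part of this was not tested. The selected cells of the H2B-GFP brain stood higher on the marker scale when pooled, as given above. For cells of 40 or more per 10000 the count was 1 of 1324 genes. That fit held 174 of the 335 cells and tested fewer genes, and the part of the marker scale in this contrast was not tested.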

How the data were processed

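Single cells were measured by STRT-seq on 26 Fluidigm C1 chips (2496 wells). The deposited tables hold counts of unique mRNA molecules per gene and well, which the authors made by aligning reads (mm10, per the submitters' processing notes) and collapsing molecular identifiers; the aligner's settings were not given in the sources used here. Of 24487 rows, 24341 genes were used; mitochondrial, spike-in and transgene rows, which held 9.08% of the molecules of P7 cells, were left out of totals. Wells with at least 1000 molecules (1514) were kept. No doublet caller was run; the limits on cycling and matrix genes remove only some mixed wells.

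The 335 cells and the gene lists were chosen with earlier results of these data known. Counts were summed per chip and class (at least 5 cells) and tested with edgeR 4.0.16 (TMM, filterByExpr, glmQLFTest, Benjamini-Hochberg over all genes tested, 0.05) in R 4.3.3, with DESeq2 1.42.0 as an alternative; an SE is the log2 difference divided by the square root of F. Class ratios used CPM + 10. Shares were compared over chips by exact permutation. Intervals for a count of 0 use 3 counts and cover counting error only. Scripts were tested on simulated data (seed 1): of 200 genes changed by 2 on the log2 scale, edgeR recovered 49.5% between spinal cord and H2B-GFP brain, 82.5% between tamoxifen times, 63% between lines and 89% between spinal cord and all brain groups.

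List genes could be named, as could the 5 genes with the largest log2 difference in each direction among those called in a contrast, and the 10 highest and 10 lowest class ratios among genes at 50 CPM with 1 direction on every chip. Some genes were kept in the fits and in counts over all genes but are not reported here, and list counts leave them out. Gene positions are from RefSeq's annotation of GRCm38.p6, the assembly behind mm10.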

Additional observations from a re-analysis of the deposited data

Results flagged for a closer look

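A lone chip stood apart in 7 of the 110 groups of 4 to 10 chips examined, by Dixon's criterion, which chance alone meets in about 1 in 20 groups. In the selected cells of the spinal cord, chip 26 stood highest for *Fa2h* (587 CPM) and *Rps15* (718 CPM), and it held only 5 selected cells. Chip 11 stood highest for *Mbp* (1230 CPM) and for *Xist* (8.14 CPM, against 0 on the other 3 chips). In the txE12.5 brain, chip 17 stood highest for *Fstl5* (160 CPM) and *Rpl21* (91.6 CPM), and chip 14 for *Sparcl1* (497 CPM).

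The transgene rows were used in no comparison. The *cre* row held 6 molecules in the selected cells of the txP3 brain (18.6 CPM) and 1 molecule in those of the txE12.5 brain (2.58 CPM), and 0 in the 2 H2B-GFP groups, whose mice carry no Cre.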

How the results depend on the processing

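No paired analysis was possible because chip numbers are unique to a group, so the groups share no replicate number and no replicate block could be fitted across them. Alternatives on the marker share of 40 or more per 10000 and on single experiments were chosen after the data were seen. The number of genes tested changed with the setting, so it is given beside the counts of the named settings. Between spinal cord and H2B-GFP brain, 42 of 3362 genes passed, against 18 of 13891 with no filter on low counts. With at least 6 marker molecules 18 of 3171 passed, after thinning 11 of 618 and at 40 or more per 10000 13 of 1324. Without single spinal cord chips 19 to 33 passed. For tamoxifen time, 3 of 3362 passed, against 0 of 13890 with DESeq2, 6 of 13891 with no filter and 1 of 1324 at 40 or more per 10000. Of 3362 genes, 6 passed against txE12.5 chips 5, 13 and 14 and 8 against chips 15, 16 and 17 (2 to 4 without single chips). For the line, 16 of 3362 passed, against 35 of 695 with DESeq2, 10 of 13891 with no filter and 8 of 3171 with at least 6 marker molecules. After thinning 6 of 618 passed, at 40 or more per 10000 1 of 1324 and with only the groups compared 8 of 3021 (7 to 30 without single traced chips). Against all brain groups, 194 of 3362 passed, against 117 of 3171 with at least 6 marker molecules and 120 of 3280 with a myelin limit of 0.2%. After thinning 61 of 618 passed and at 40 or more per 10000 35 of 1324 (104 to 216 without single chips). The interaction gave 0, but 1 without the chip block and 0 to 1 without single chips. The count of 16 against comparison cells became 6 after thinning and 32 at 40 or more per 10000 (15 to 20 without single chips), and that of 282 against myelin-rich cells 101 after thinning (314 to 381 without single chips).

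The share difference between txP3 and txE12.5 was 15.2 points (exact permutation p = 0.0357) for cells of at least 1500 molecules and −0.129 points (p = 1 by exact permutation) at 40 or more per 10000, and ran from 7.10 to 18.2 without single chips, with 15.8 and an exact permutation p of 0.0179 without txE12.5 chip 5. That between traced and H2B-GFP brain was −14.0 after thinning and −16.9 at 40 or more per 10000, and ran from −18.3 to −2.79 without single chips. As a share of the selected, comparison and myelin-rich cells alone it was −2.91. That between spinal cord and H2B-GFP brain ran from −22.6 to −7.15, and was −3.86 with a myelin limit of 0.8%, −21.2 with chip 23 and −25.4 with chip 23 and chip 9, whose table is named for E13.5. *Pdgfra* between tamoxifen times turned to −0.030 at 40 or more per 10000, and *Xist* and *Tsix* stood at 0 against txE12.5 chips 15, 16 and 17. Of named genes, 11 of 34 kept direction and side of the threshold under every alternative run for spinal cord against all brain groups, 4 of 21 for spinal cord against H2B-GFP brain, 1 of 7 for tamoxifen time and 0 of 7 for the line. The causes of these changes were not tested. The spinal cord chip 26, with 15324 molecules in 5 selected cells, and the 2 H2B-GFP brain chips limit the precision.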

Other observations

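The *GFP* row gave the reporter's message in the selected cells. It stood at 43.4 CPM in the spinal cord and 51.5 CPM in the H2B-GFP brain, against 167 and 181 CPM in the comparison cells of the same groups, where the reporter is read from the *Pdgfra* locus. In the traced groups, whose reporter no longer depends on *Pdgfra*, it stood at 111 CPM against 127 CPM in the txE12.5 brain and at 93.1 against 76.1 CPM in the txP3 brain. These values rest on 14, 7, 43 and 30 molecules in the selected cells and were not tested.

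Of the myelin-rich cells, 92 of 99 also held at least 5 marker molecules, and 10 of the selected cells drew 0.3% to 0.4% of their molecules from the 5 myelin genes, just under the limit. The immediate early genes, which dissociation can induce, summed to 444 CPM in the selected cells of the spinal cord, 346 CPM in the H2B-GFP brain, 606 CPM in the txE12.5 brain and 587 CPM in the txP3 brain.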
